A study of Mus musculus with 6 samples.

Results

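The genes described here are 10 genes of glycogen, glucose and fatty acid fuel use, *Pdk4*, *Cpt1a*, *Angptl4*, *Pygb*, *Gys1*, *Ldha*, *Slc16a1*, *Slc2a1*, *Ppargc1a* and *Pfkfb3*. Accessibility around them was read from ATAC-seq, which marks open DNA by where the Tn5 transposase can insert adapters, in nuclei of astrocytes sorted from mouse primary visual cortex (V1) at P21. All mice were GR fl/fl, with both copies of the glucocorticoid receptor (GR) gene flanked by loxP sites, and were injected at P0-P1 with an AAV2/5 vector whose GfaABC1D promoter drives expression in astrocytes. In GR-KO mice the vector carried Cre and in GR-con mice the inactive ΔCre, each with a nuclear EGFP-KASH tag that was used for sorting. There were 3 libraries per condition, each made from 50000 sorted events and from V1 tissue pooled from 3 to 4 animals. A peak belonged to a gene when its summit lay in the gene body or within 50 kb of it. By that rule 285, 275 and 272 peaks of GR-con 1, 2 and 3 and 259, 267 and 266 peaks of GR-KO 1, 2 and 3 were members, out of lists of 179462 to 198929 peaks. Summits were merged across libraries into sites of 400 bp, of which 238 of the 160992 in the genome belonged to the 10 genes, and 146 of these had a peak in all 6 libraries.

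Astrocytes take up glucose from blood, store part of it as glycogen, and export lactate that neurons can use. The choice between burning glucose and burning fatty acids in mitochondria is set by pyruvate dehydrogenase, which the PDK kinases switch off, and by the CPT1 step that admits fatty acids to mitochondria. Glucocorticoids, the ligands of GR, are named for their action on glucose, and *Pdk4* and *Angptl4* are textbook GR target genes in peripheral tissues.

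The lists give each summit a fold enrichment over the local background of its own library and a −log10 p for that enrichment. Because the lists hold no reads, each site was ranked within its library by either value and ranks were converted to normal scores, so that a score difference of 1 is 1 standard deviation of the ranking. Scores of GR-KO were set against those of GR-con by limma over all 160992 sites, and a site was called at an adjusted p under 0.05. In tissue nuclei pooled in this way, fewer nuclei with an open site and less opening per nucleus cannot be told apart.

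The deleted gene was checked first. *Nr3c1*, which encodes GR, held 17 sites, of which 2 were called by both values, 1 in each direction. At the lower one the fold was 14.3 to 17.4 in GR-con and 4.73 to 6.68 in GR-KO libraries (adjusted p = 0.0242 by fold and 1.4e-05 by −log10 p, limma). The higher one had no peak in GR-con and a fold of 4.75 to 6.39 in the 3 GR-KO libraries (adjusted p = 0.0396 by fold and 0.00728 by −log10 p). Which part of the gene is deleted is not given in the sources used here, so neither site checks the deletion directly. Promoters of 8 of 8 astrocyte marker genes had a peak in all 6 libraries, at a median percentile of 91.2 by −log10 p. The same was true of 4 of 6 neuronal markers (median percentile 63.3, with *Snap25* at 86.7), 2 of 4 microglial markers (61.9), 2 of 4 endothelial markers (31.1) and 0 of 5 oligodendrocyte markers (10.9). Median percentiles of these lists in GR-con and GR-KO were 91.7 and 91.0 for astrocytes, 64.3 and 61.6 for neurons, 55.5 and 63.5 for microglia, 31.2 and 31.8 for endothelium and 15.0 and 6.82 for oligodendrocytes. The part of these other cells in the results below was not tested.

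Of the 238 sites, 3 were called and all 3 lay around *Pdk4*, the kinase that switches off pyruvate dehydrogenase and so spares glucose. One was lower in GR-KO, 53.0 kb downstream of the *Pdk4* start, and the others were higher, 25.4 kb downstream and 746 bp upstream of it. These calls were made by −log10 p, by which 1 of 238 sites was lower and 2 were higher, against 0.839% lower and 0.763% higher of all sites. By fold, 0 of 238 sites were called in either direction, against 0.126% lower and 0.0609% higher of all sites. An unadjusted p under 0.05 in limma was reached by 34 sites, 15 lower and 19 higher. These 34 are 14.3% of the sites, against a background of 12.1%. By −log10 p, 36 sites or 15.1% had an unadjusted p under 0.05, 16 lower and 20 higher, against 13.3% of all sites. Of the 77 sites within 1 kb of a transcript start, 14 (18.2%) had an unadjusted p under 0.05 by −log10 p and 10 (13.0%) by fold, against 10.4% and 7.66% of all such sites. Of the 161 distal sites the numbers were 22 (13.7%) and 24 (14.9%), against 14.2% and 13.4%. These shares are given as a description, without a test.

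The sequences of the 3 called *Pdk4* sites are shown because they carry the only calls among these genes. They are the central 200 bp of each site on the plus strand of mm10, while *Pdk4* lies on the minus strand of chromosome 6, from 5483351 to 5496309. Capitals mark the GR half-site AGAACA in the first and the run ACTGTA in the second. Both were searched on both strands because earlier results of these data had shown them at sites lower and higher in GR-KO.
*Pdk4* 53.0 kb downstream, lower, chr6:5443255-5443454: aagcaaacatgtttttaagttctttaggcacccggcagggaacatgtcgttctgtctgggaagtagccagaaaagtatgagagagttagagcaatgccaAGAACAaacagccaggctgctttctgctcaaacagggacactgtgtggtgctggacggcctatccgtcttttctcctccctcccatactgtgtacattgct
*Pdk4* 25.4 kb downstream, higher, chr6:5470767-5470966: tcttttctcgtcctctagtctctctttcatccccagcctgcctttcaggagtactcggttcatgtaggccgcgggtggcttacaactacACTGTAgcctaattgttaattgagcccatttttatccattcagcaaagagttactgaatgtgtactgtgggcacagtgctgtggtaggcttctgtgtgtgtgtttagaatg
*Pdk4* 746 bp upstream, higher, chr6:5496955-5497154: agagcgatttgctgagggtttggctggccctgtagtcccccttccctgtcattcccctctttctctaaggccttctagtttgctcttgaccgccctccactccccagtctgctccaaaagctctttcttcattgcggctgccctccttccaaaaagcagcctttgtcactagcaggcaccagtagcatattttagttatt

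The half-site of the first sequence lay 2 bp from the centre of its site and the ACTGTA of the second 8 bp from its centre. Such short runs are common. AGAACA occurred in 24.8% of the 238 sites and 30.5% of all sites, and ACTGTA in 21.8% and 15.9%. The third sequence held none of the 10 motifs searched.

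The site 53.0 kb downstream of *Pdk4* lay between genes, 10333 bp from *Asb4*, the nearest coding gene. Its fold was 8.06, 6.96 and 7.92 in GR-con 1, 2 and 3 and 3.52, 4.23 and 3.47 in GR-KO 1, 2 and 3. The −log10 p at this site was 64.5, 44.1 and 58.0 in GR-con against 11.4, 16.8 and 10.8 in GR-KO. All 3 GR-KO libraries stood below all 3 GR-con libraries by both values, and the percentile of the site within its list went from 73.3 ± 3.87 to 43.9 ± 5.33 (SD, n = 3 each). The score differed by −0.65 by −log10 p (SE 0.11, adjusted p = 0.0037, limma) and by −0.65 by fold (SE 0.12, adjusted p = 0.078). The call by −log10 p was lost without GR-con 1 (adjusted p = 0.121), GR-con 2 (0.0666) or GR-con 3 (0.078), without the variance trend (0.0528), and when a peak had to cover more than 200 bp of the site (0.140). The score difference in these settings ran from −0.727 to −0.598.

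The site 25.4 kb downstream of *Pdk4*, 12484 bp beyond the end of the gene, was the distal site of the window (over 1 kb from every start) with the highest mean −log10 p. Its fold was 12.6, 13.3 and 10.6 in GR-con and 16.1, 18.3 and 15.5 in GR-KO. Its −log10 p was 124.5, 128.3 and 94.9 in GR-con and 256, 323 and 222 in GR-KO libraries. Again the conditions did not overlap by either value, here with GR-KO above GR-con. The score difference was 0.57 by −log10 p (SE 0.07, adjusted p = 0.00015, limma) and 0.40 by fold (SE 0.08, adjusted p = 0.0977). The call held without any 1 library (adjusted p = 0.00255 to 0.0349) and was lost without the variance trend (0.0950).

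The third called site, 746 bp upstream of the start, was a second summit on the broad promoter peak of *Pdk4*, which was 1334 to 1430 bp wide in all 6 libraries. Its fold was 4.08, 3.58 and 3.96 in GR-con and 4.64, 5.90 and 5.63 in GR-KO. Its −log10 p was 51.4, 41.8 and 51.6 in GR-con and 88.6, 142 and 124 in GR-KO, so that GR-KO stood above GR-con by both values. The score difference was 0.50 by −log10 p (SE 0.08, adjusted p = 0.00112, limma) and 0.38 by fold (SE 0.13, adjusted p = 0.294). The call was lost without GR-con 1 (adjusted p = 0.0579), GR-con 2 (0.0706) or the variance trend (0.118). When a site took the strongest peak that covered it, and with it the value of the main promoter summit, the difference was 0.0975 by −log10 p (adjusted p = 0.648) and −0.106 by fold.

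The main promoter summit of *Pdk4*, 119 bp upstream of the start, was not called. Its fold was 13.3, 13.7 and 13.2 in GR-con and 12.1, 11.7 and 12.3 in GR-KO, while its −log10 p was 413, 469 and 437 against 475, 464 and 474. By fold GR-KO was below GR-con in every library, and by −log10 p the conditions overlapped (adjusted p = 0.563 and 0.738). Within 50 kb of *Pdk4* there were 18 sites, 12 of them in all 6 libraries and 1 in the gene body. Beside the 3 called sites, 4 more had an unadjusted p under 0.05 by −log10 p in limma, at 58.3, 48.7 and 48.2 kb downstream and 13.0 kb upstream, of which those at 48.7 and 48.2 kb were higher in GR-KO.

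**Figure D1:**
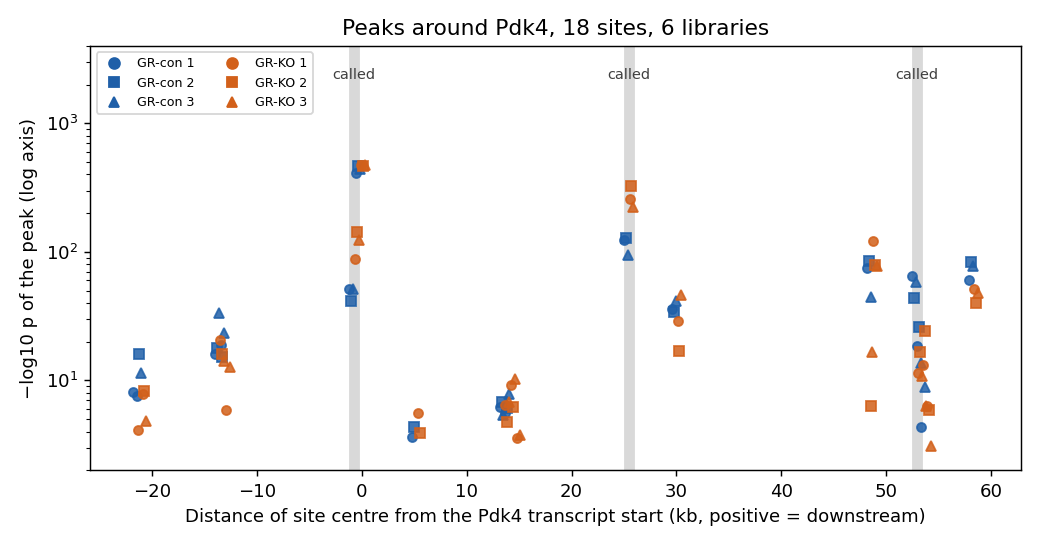
−log10 p of the peak (log axis) at the 18 sites around *Pdk4* by distance from the transcript start in kb, one symbol per library with small sideways offsets, blue for GR-con and orange for GR-KO. Grey bands mark the 3 called sites, where GR-KO lies below GR-con at 53.0 kb and above it at 25.4 kb and just upstream of the start, beside a promoter summit at 413 to 475 in all 6 libraries, while weaker sites at 53.4 and 53.8 kb fall beside the right band.

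The GR palindrome GNACANNNTGTNC, the paired form of the motif that a GR dimer binds, was present at 5 of the 238 sites (2.10%, against 1.01% of all sites). They lay around *Pygb*, *Slc2a1*, *Ppargc1a* and *Pfkfb3* and are shown with 20 bp to each side, the palindrome in capitals, so that the motif can be read beside the values that follow. All are on the plus strand of mm10.
*Slc2a1* 20.6 kb downstream, chr4:119129253-119129305: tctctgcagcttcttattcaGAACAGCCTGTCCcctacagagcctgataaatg
*Ppargc1a* 30.5 kb downstream, chr5:51537225-51537277: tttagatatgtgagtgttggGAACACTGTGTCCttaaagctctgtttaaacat
*Pfkfb3* 11.3 kb downstream, chr2:11542730-11542782: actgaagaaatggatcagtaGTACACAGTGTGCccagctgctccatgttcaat
*Pfkfb3* 119.6 kb downstream, chr2:11434278-11434330: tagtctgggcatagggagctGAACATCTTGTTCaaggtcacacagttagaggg
*Pygb* 55.2 kb downstream, chr2:150842099-150842151: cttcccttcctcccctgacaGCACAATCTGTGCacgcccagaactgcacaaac

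None of the 5 was called. The one in an intron of *Slc2a1*, the glucose transporter GLUT1, had a fold of 6.15, 6.81 and 5.59 in GR-con against 3.71, 4.21 and 2.75 in GR-KO. Its −log10 p was 24.0, 32.6 and 26.0 in GR-con and 8.60, 10.5 and 4.67 in GR-KO. The conditions did not overlap by either value, and the score difference was −0.63 by −log10 p (SE 0.18, adjusted p = 0.0975, limma) and −0.55 by fold (SE 0.17, adjusted p = 0.229). On log2 values of −log10 p at sites with a peak in all 6 libraries it was called (adjusted p = 0.00833).

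The palindrome site in an intron of *Ppargc1a*, which encodes the coactivator PGC-1α of mitochondrial genes, was weaker. Its −log10 p was 10.3, 17.7 and 9.43 in GR-con and 4.01 in GR-KO 1, with no peak in GR-KO 2 and 3. The score difference was −0.98 by −log10 p (SE 0.31, adjusted p = 0.138, limma). At the other 3 palindrome sites the conditions overlapped. How often palindrome sites elsewhere in the genome separate the conditions was not tested. The *Pfkfb3* site 11.3 kb downstream had the highest fold of the 5, at 19.1, 18.4 and 19.1 in GR-con and 16.6, 20.9 and 18.4 in GR-KO (adjusted p = 0.987). The −log10 p at the *Pfkfb3* site 119.6 kb downstream was 12.04, 14.5 and 28.3 against 16.4, 5.26 and 11.6 (adjusted p = 0.658), and at the *Pygb* site it was 25.4, 15.1 and 13.8 against 21.9, 14.2 and 18.5 (adjusted p = 0.881).

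**Figure D2:**
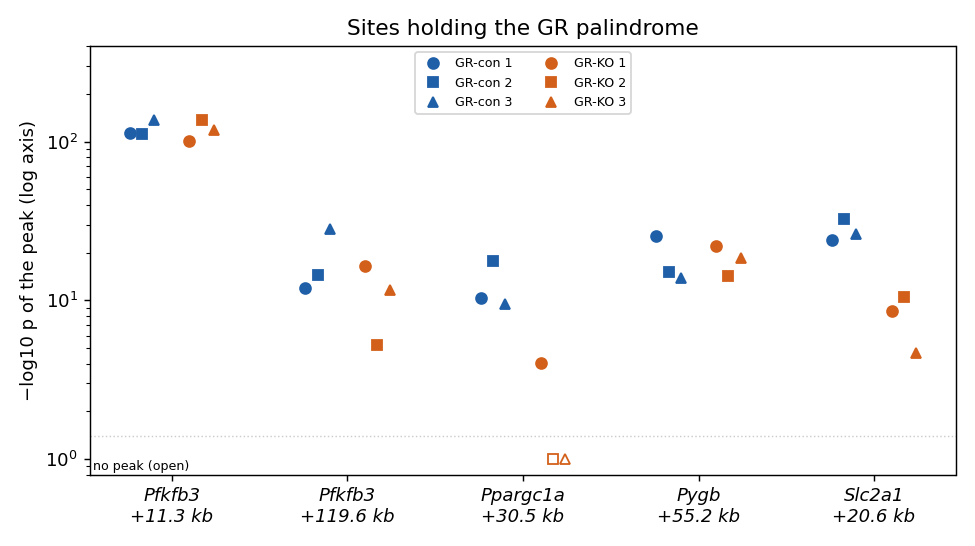
−log10 p of the peak (log axis) at the 5 sites that hold the GR palindrome, one symbol per library, blue for GR-con and orange for GR-KO, with open symbols at the bottom for libraries without a peak. GR-KO lies below GR-con at *Slc2a1* and *Ppargc1a*, and the conditions overlap at *Pygb* and at both *Pfkfb3* sites. None of the 5 was called.

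The promoters of all 10 genes were open in all 6 libraries, and none was called. For each gene the promoter is the site within 1 kb of one of its annotated starts with the highest mean −log10 p over the 6 libraries, and the strongest distal sites named below were chosen by the same value. In order of mean fold in GR-con the promoter of *Angptl4*, an inhibitor of lipoprotein lipase, stood at 18.5 ± 1.65, *Ppargc1a* at 17.5 ± 0.572, *Gys1* at 16.5 ± 0.547 and *Ldha* at 16.0 ± 0.458 (SD, n = 3). *Pdk4* stood at 13.4 ± 0.295, *Slc16a1* at 11.4 ± 0.666, *Pfkfb3* at 11.3 ± 0.853 and *Pygb* at 10.9 ± 0.571, followed by *Slc2a1* at 9.22 ± 0.461 and *Cpt1a* at 9.04 ± 0.403. The mean ± SD ranges of neighbours in this order overlapped, except that *Ldha* stood above *Pdk4*, *Pdk4* above *Slc16a1* and *Pygb* above *Slc2a1*. The site named for *Gys1* lay 199 bp upstream of its start and is also the promoter of *Ruvbl2*, so its value cannot be given to either gene alone. The site named for *Angptl4* lay in an intron, 2368 bp downstream of the first annotated start and near a later one. The *Angptl4* site 561 bp downstream of the first start had a mean fold of 5.13 in GR-con and 4.83 in GR-KO.

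In GR-KO the promoter fold was 19.0 ± 0.351 at *Angptl4*, 17.4 ± 1.23 at *Ppargc1a*, 17.6 ± 0.551 at *Gys1* and 15.0 ± 1.55 at *Ldha* (SD, n = 3). It was 12.1 ± 0.297 at *Pdk4*, 12.6 ± 0.609 at *Slc16a1*, 12.7 ± 0.139 at *Pfkfb3*, 12.03 ± 0.575 at *Pygb*, 9.73 ± 0.533 at *Slc2a1* and 9.10 ± 0.720 at *Cpt1a*. Adjusted p-values of the 10 promoters ran from 0.420 to 0.995 by fold and from 0.424 to 0.988 by −log10 p (limma).

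**Figure D3:**
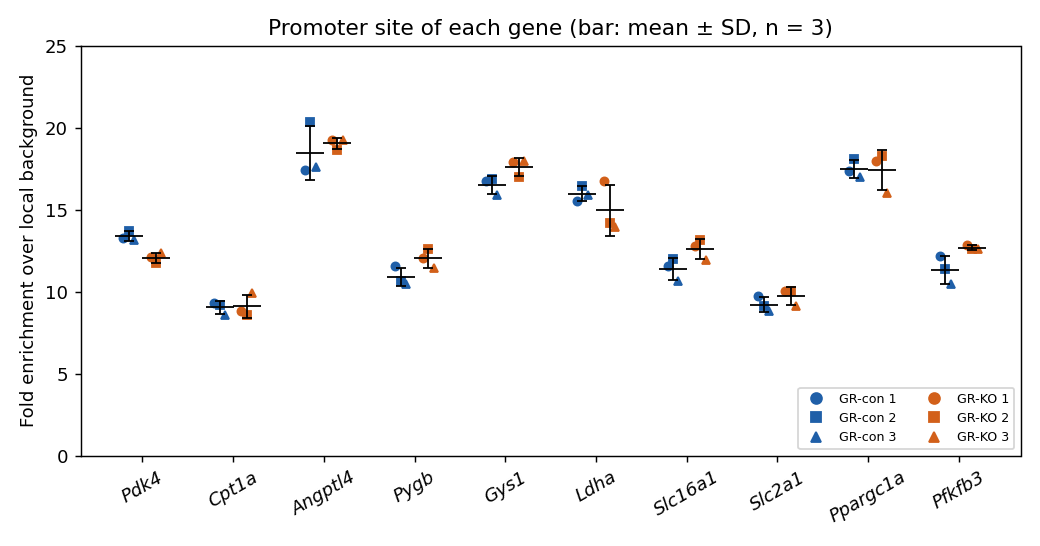
Fold enrichment over the local background at the promoter site of each gene, one symbol per library (blue for GR-con, orange for GR-KO), with black bars for the mean and SD of 3 libraries. The mean runs from 9.04 at *Cpt1a* to 18.5 at *Angptl4* in GR-con, where the *Angptl4* site lay 2368 bp downstream of the first annotated start. No promoter differed between conditions at an adjusted p under 0.05.

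Among the genes of glucose entry and glycolysis, *Slc2a1* had 24 sites and *Pfkfb3*, which makes the allosteric activator of phosphofructokinase, had 23. The *Pfkfb3* site of smallest p by −log10 p, in an intron 62.4 kb downstream of the start, had a −log10 p of 47.8, 69.6 and 56.8 in GR-con and 30.3, 24.9 and 17.2 in GR-KO. The 2 sets did not overlap, but the difference of −0.38 (SE 0.10) missed the threshold with an adjusted p of 0.0594 in limma, and passed it on log2 values (adjusted p = 0.0172). The strongest distal site of *Pfkfb3*, 58.9 kb downstream, had a fold of 12.8, 12.4 and 11.8 in GR-con against 13.7, 12.8 and 14.2 in GR-KO (adjusted p = 0.476). At *Slc2a1* the strongest distal site, 31.2 kb upstream, had a fold of 21.4, 22.8 and 15.8 against 21.9, 22.2 and 21.9, with GR-con 3 below the others (adjusted p = 0.570). A weaker *Slc2a1* site 54.5 kb downstream had peaks in all 3 GR-con libraries, with a −log10 p of 6.83, 16.9 and 12.2, and in GR-KO 1 alone, at 5.23 (adjusted p = 0.216).

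Neither lactate gene had a called site. *Ldha*, the lactate dehydrogenase subunit that favours lactate production, had 11 sites, and 0 of them had an unadjusted p under 0.05 by either value in limma. Its strongest site away from a start, 2.5 kb upstream, had a fold of 13.6, 14.5 and 13.2 in GR-con against 14.0, 13.4 and 13.0 in GR-KO (adjusted p = 0.979). *Slc16a1*, the monocarboxylate transporter MCT1 that carries lactate across the membrane, had 19 sites, of which 2 were lower and 2 higher at an unadjusted p under 0.05 by each value. Its strongest distal site, 41.3 kb upstream, overlapped between conditions with a fold of 16.0, 19.3 and 17.7 against 20.7, 17.3 and 17.0 (adjusted p = 0.872). Of its sites with an unadjusted p under 0.05 by fold, 3 had a peak in all 6 libraries, and their values follow. The site 26.5 kb upstream had a fold of 8.32, 8.09 and 8.79 in GR-con against 5.42, 3.79 and 5.99 in GR-KO, and the one 62.5 kb downstream had 18.5, 19.6 and 14.5 against 13.9, 12.3 and 14.4, each with an unadjusted p of 0.0094 and an adjusted p of 0.225 in limma. The site 16.7 kb upstream ran the other way, with 7.18, 6.96 and 4.06 in GR-con and 9.39, 9.09 and 7.86 in GR-KO (unadjusted p = 0.0212, adjusted p = 0.311).

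Neither glycogen gene had a called site. *Pygb*, the brain form of glycogen phosphorylase, had the most sites of the 10 genes, 43, of which 26 had a peak in all 6 libraries, and 0 had an unadjusted p under 0.05. Its strongest distal site, 20.9 kb upstream in an intron of *Entpd6*, had a fold of 16.4, 20.3 and 15.3 in GR-con against 21.02, 19.6 and 17.6 in GR-KO (adjusted p = 0.504). *Gys1*, the glycogen synthase outside liver, had 24 sites in a window rich in promoters of other genes, 17 of them within 1 kb of some transcript start. By −log10 p 1 was lower and 2 were higher at an unadjusted p under 0.05. The lower one, at a start annotated inside *Gys1* itself 16659 bp downstream of the first, had a −log10 p of 99.6, 126.8 and 106.0 in GR-con and 73.2, 71.7 and 60.2 in GR-KO.

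Of the genes of fatty acid use, *Cpt1a* encodes the CPT1 form that admits long-chain fatty acids to mitochondria in liver and astrocytes. It had 24 sites, of which 2 were lower and 4 higher at an unadjusted p under 0.05 by −log10 p, with an adjusted p of 0.151 at the least. Its strongest distal site, in an intron 3.2 kb downstream, had a fold of 9.44, 9.71 and 7.52 in GR-con against 9.79, 9.63 and 8.23 in GR-KO (adjusted p = 0.813). *Angptl4* had 21 sites, and the one of smallest p was the promoter of the neighbouring *Rab11b*, 21.3 kb downstream. Its −log10 p was 513, 581 and 462 in GR-con and 673, 632 and 612 in GR-KO, with no overlap and an adjusted p of 0.105 in limma (0.0379 on log2 values). The strongest distal site of *Angptl4*, 16.7 kb upstream, had a fold of 22.7, 19.9 and 19.7 against 21.8, 21.7 and 22.1 (adjusted p = 0.655).

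*Ppargc1a* had 31 sites, of which 8 had an unadjusted p under 0.05 by each value, 4 lower and 4 higher. The intronic site 46.7 kb downstream of its start had a −log10 p of 26.4, 22.6 and 25.2 in GR-con, no peak in GR-KO 1, and 6.19 and 6.99 in GR-KO 2 and 3. The difference of −0.96 (SE 0.25) missed the threshold with an adjusted p of 0.0684 in limma. A site 32.1 kb upstream was the one of smallest p by fold and ran the other way, at 9.32, 11.2 and 9.44 in GR-con and 13.8, 12.4 and 14.9 in GR-KO (adjusted p = 0.138). The strongest distal site, 15.1 kb upstream, had a fold of 18.4, 20.2 and 16.4 against 17.3, 19.2 and 16.9 (adjusted p = 0.916).

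**Figure D4:**
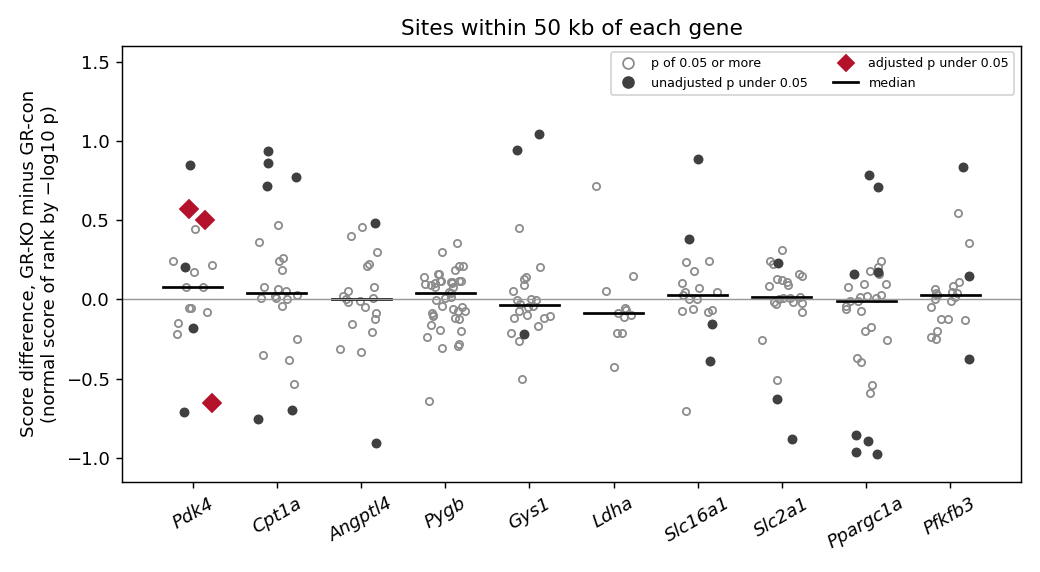
Difference in the normal score of the rank by −log10 p, GR-KO minus GR-con, for each of the 238 sites by gene. Red diamonds are the 3 called sites, all of *Pdk4*, dark points have an unadjusted p under 0.05, open points do not, and the medians by gene (black lines) lie between −0.085 at *Ldha* and 0.078 at *Pdk4*.

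Peaks present in one condition only were few and weak. Peaks in all 3 GR-con and no GR-KO libraries occurred at 2 of the 238 sites (0.840%), against 1.15% of all sites, one in *Gal* in the *Cpt1a* window, 92.2 kb downstream, and one 24.2 kb upstream of *Ppargc1a*, with a −log10 p of 3.81 to 8.26. Peaks in all 3 GR-KO and no GR-con libraries occurred at 4 sites (1.68%), against 0.622% of all sites. They lay 129 bp downstream of the *Cpt1a* start, 40.6 kb downstream of *Gys1*, 28.8 kb upstream of *Slc16a1* and 14.6 kb upstream of *Pfkfb3*, with a −log10 p of 3.23 to 10.5 where the lists begin at 2.00. None of these 6 sites was called, although without the variance trend those of *Ppargc1a* and *Gys1* were (adjusted p = 0.0135 and 0.0242 by −log10 p, limma). When a peak had to cover more than 200 bp of the site, 1 site was in GR-con only and 0 were in GR-KO only.

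The number of peaks around the 10 genes was 146.5 ± 8.77 per 100000 peaks of the list in GR-con and 144.7 ± 0.423 in GR-KO (SD, n = 3 each, exact permutation p = 0.700, two-sided). Around *Pdk4* there were 19, 17 and 19 peaks in GR-con and 24, 21 and 19 in GR-KO, which is 9.67 ± 0.530 and 11.7 ± 1.55 per 100000. GR-KO lay above GR-con in every library after that scaling, but the exact p of 0.1 is the smallest that 3 libraries against 3 can give and came to 0.5 when adjusted over the 10 genes. The conditions overlapped for *Cpt1a*, *Pygb*, *Gys1*, *Slc16a1*, *Slc2a1*, *Ppargc1a*, *Pfkfb3*, *Angptl4* and *Ldha*.

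**Figure D5:**
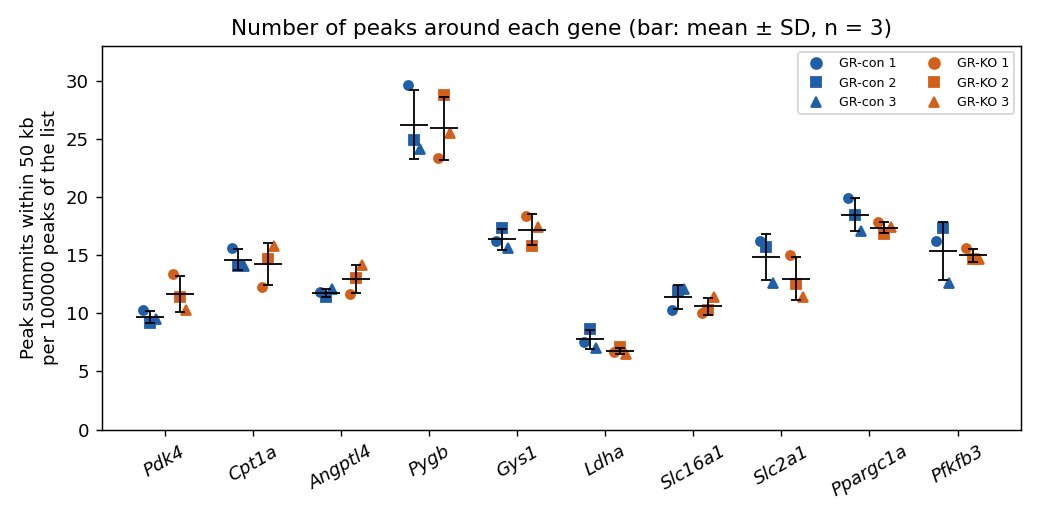
Number of peak summits in the body or within 50 kb of each gene per 100000 peaks of the list, one symbol per library (blue for GR-con, orange for GR-KO), with black bars for the mean and SD of 3 libraries. *Pygb* has the most peaks, and *Pdk4* is the gene whose conditions do not overlap, at 9.67 ± 0.530 in GR-con and 11.7 ± 1.55 in GR-KO.

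The motif found at the most of these sites, among the 10 searched, was the hypoxia core ACGTG. It holds the letters bound by HIF factors and by other basic helix-loop-helix proteins, and was found on either strand in 79 of the 238 sites (33.2%), against 19.5% of all sites. More of these sites lay within 1 kb of a transcript start (32.4%, against 22.4% of all sites), and their median GC content was 50.4% against 49.2%. RefSeq promoters (GRCm38.p6, 250 bp before to 50 bp after the start) were found for 9 of the 10 genes, which had 11 promoters. ACGTG occurred in 7 of these 11 promoters, against 19.6% of all promoters. The 7 belong to *Ldha*, *Pfkfb3*, *Ppargc1a*, *Pygb*, *Slc16a1* and *Slc2a1*. The cAMP response element TGACGTCA occurred in the *Ldha* promoter and in 1.79% of all promoters. The GR palindrome occurred in the promoter of none of these 9 genes and in 0.475% of all.

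Calls by −log10 p around other genes of the same pathways are set beside the 0.839% lower and 0.763% higher of all sites, without a test. By fold, 0 of 334 sites of the glycogen list and 0 of 510 of the glycolysis and lactate list were called. In the fatty acid list 1 of 508 was called by fold, lower in GR-KO. Of all sites, 0.126% were called lower and 0.0609% higher by fold. Around 23 other glycogen genes, 3 of 334 sites were lower in GR-KO by −log10 p and 0 were higher, or 0.898% and 0%. The strongest lay 1658 bp upstream of *Pygm*, the muscle form of glycogen phosphorylase, with a −log10 p of 72.4, 93.8 and 70.3 in GR-con and 14.3, 15.2 and 12.2 in GR-KO (score difference −0.79, SE 0.10, adjusted p = 0.000123, limma). The others lay 37050 bp downstream of *Ppp1r3g* and 40120 bp downstream of *Pgm1*, a glycogen-targeting subunit of protein phosphatase 1 and a phosphoglucomutase. At the former the −log10 p was 80.0, 70.9 and 58.3 against 14.1, 19.7 and 14.4 (adjusted p = 0.000909).

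Around 30 other genes of glycolysis and lactate, 4 of 510 sites were lower and 3 higher by −log10 p (0.784% and 0.588%). *Pdk2*, a further PDK kinase, held 2 of the lower sites and 1 of the higher ones. The lower one in its nearer surroundings, 9547 bp downstream, had a −log10 p of 75.4, 71.7 and 47.9 in GR-con and 27.5, 18.6 and 17.3 in GR-KO (adjusted p = 0.0133, limma). A site 30023 bp upstream of *Gapdh*, a glycolytic enzyme, was lower at 57.0, 57.7 and 53.9 against 170.3, 168.8 and 183.4 in GR-con (adjusted p = 2.0e-05), and one 41689 bp downstream of *Bsg*, the partner protein of lactate transporters, was lower with a peak in 1 GR-KO library (adjusted p = 0.00271). Sites near *Aldoc* and *Pkm* were higher (adjusted p = 0.0176 and 0.0472). The one near *Aldoc* had no peak in GR-con and a low fold of 1.94 to 2.14 in GR-KO (adjusted p = 0.364 by fold, limma).

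Around 29 other genes of fatty acid use, 3 of 508 sites were lower and 4 higher by −log10 p (0.591% and 0.787%), with the site shared by *Hadha* and *Hadhb* counted once. A site near *Acsbg1*, an acyl-CoA synthetase, was lower with an adjusted p of 0.0425 in limma. Sites near *Hadha* and *Hadhb*, *Fabp7*, *Plin2* and *Abcd2* were higher, with adjusted p-values of 0.0231 to 0.0401. None of the called sites around these 3 gene lists held the GR palindrome.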

How the data were processed

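ATAC-seq peak lists of 3 GR-con and 3 GR-KO libraries were used. The authors ran the ENCODE ATAC-seq pipeline and called peaks in each library separately at a peak p threshold of 0.01 on mm10. Each deposited list gives a capped score, a fold enrichment over the local background (a ratio), the −log10 p-value, the −log10 q-value and the summit position. No read counts were used, so depth is unknown here. The q-value served for 1 alternative and the score was not used. The 10 genes, the gene lists and the motifs were chosen with earlier results of these data known.

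Each summit was extended by 200 bp to each side, sites were taken in order of rank without overlap, and those with a summit in at least 2 libraries were kept. A site took the values of its strongest summit, and a library without one was ranked lowest. Of the peaks, 78.5 to 81.0% had their summit in a site. Normal scores of ranks entered limma 3.58.1 (R 4.3.3), fitted with a variance trend and Benjamini-Hochberg adjustment over all sites, after the step had been tested on simulated scores. Gene positions are from GENCODE for mm10 (GRCm38), and 0 of 1116429 peaks ended beyond a chromosome. Python 3.11.15, pysam 0.24.0 and scipy 1.17.1 were used.

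Sites named are, for each gene, the promoter and distal sites of highest mean −log10 p, those of smallest p by fold and by −log10 p, and every site that was called, present in one condition only or held the GR palindrome. Sites at an unadjusted p under 0.05 that are given with values beside these were chosen after their values were seen. At sites picked by a call or a small p, separation of the conditions follows largely from that choice. Alternatives were lists cut to equal length or to q-values under 0.01, coverage of more than 200 bp, sites in at least 3 libraries, no variance trend, log2 values at sites with a peak in all 6 libraries, a replicate block, other windows and leaving out each library. The GR half-site and ACTGTA were added after seeing the data. Sites were assigned to genes by position alone, and *Angptl4* was not matched in the RefSeq promoters. Some called sites of the fatty acid list are not reported here.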

Additional observations from a re-analysis of the deposited data

How the results depend on the processing

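The 3 calls by −log10 p rest on small groups. Sites of these genes called lower by −log10 p numbered 1, and 0 when a peak had to cover more than 200 bp, 3 on log2 values at sites with a peak in all 6 libraries, and 0 to 2 with 1 library left out. Those called higher numbered 2, and 1 under the coverage rule, 1 without the variance trend and 1 to 2 with 1 library left out. Without the variance trend none of the 3 *Pdk4* sites was called, and the 1 lower and 1 higher call by either value were other sites, 24.2 kb upstream of *Ppargc1a* (adjusted p = 0.0135 by −log10 p) and 40.6 kb downstream of *Gys1* (0.0242). On log2 values the 3 *Pdk4* sites were called together with sites of *Pfkfb3*, *Slc2a1* and *Angptl4*, and the second lower call without GR-KO 2 was 35.4 kb upstream of *Angptl4*. By fold the count was 0, and 1 lower and 1 higher without the variance trend and 1 lower on log2 values. Sites in GR-con only went from 2 to 1 and in GR-KO only from 4 to 0 under the coverage rule, with 2 to 6 and 4 to 7 when 1 library was left out. A replicate block gave 1 lower and 2 higher calls by −log10 p and 0 by fold in these genes. Over all sites it gave 722 lower and 520 higher calls by −log10 p, against 1350 and 1228 without it, and 0 by fold in limma, against 203 and 98, with 18355 sites at an unadjusted p under 0.05. Correlations of the deviations were −0.00705 to 0.0302 between same-numbered libraries of the 2 conditions and −0.0343 to 0.00966 between the other pairs. With 3 libraries per condition these values cannot settle whether the numbers pair the samples. Over all sites, the coverage rule gave 499 and 284 calls by −log10 p and 446 and 242 by fold, no variance trend gave 1153 and 807 and 1068 and 770, log2 values gave 2036 and 2181 and 359 and 261, and leaving out 1 library gave 174 to 818 and 193 to 384 by −log10 p and 0 to 2 and 0 by fold.

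No called site turned direction by −log10 p. Differences that turned sign under the coverage rule were those of the *Pdk4* site 746 bp upstream by fold (from 0.384 to −0.106) and the *Pfkfb3* site 119.6 kb downstream (0.129 by fold, 0.0867 by −log10 p), and on log2 values the *Ppargc1a* promoter by fold (−0.000222). With 1 library left out, differences by fold spanned −0.0055 to 0.0671 at the *Cpt1a* promoter, −0.00818 to 0.127 at the *Angptl4* promoter, −0.00172 to 0.218 at the *Pygb* palindrome site, −0.0264 to 0.00833 at the *Ldha* distal site, −0.0331 to 0.121 at the *Slc16a1* distal site, −0.0344 to 0.0529 at the *Ppargc1a* promoter, −0.099 to 0.0288 at its distal site and −0.115 to 0.0959 at the *Pfkfb3* site 11.3 kb downstream. By −log10 p they spanned −0.0405 to 0.044 and −0.0262 to 0.106 at the *Cpt1a* promoter and distal site, −0.0606 to 0.0691 at the *Angptl4* promoter, −0.0639 to 0.169 at the *Pygb* distal site, −0.0844 to 0.0597 at the *Slc16a1* distal site, −0.015 to 0.0465 at the *Slc2a1* promoter, −0.011 to 0.0208 at the *Ppargc1a* distal site, and −0.0193 to 0.0942 and −0.0131 to 0.0772 at the *Pfkfb3* distal site and the one 11.3 kb downstream. Peak numbers per 100000 differed by −1.13 to 0.616 at *Cpt1a*, −1.77 to 1.39 at *Pygb*, −1.77 to 0.608 at *Pfkfb3* and −6.68 to 1.81 over the 10 genes, the last without GR-con 1, and by 0.292 at *Pygb* and 0.0233 at *Pfkfb3* in a window of 10 kb. The causes were not tested. Depth cannot be read from the lists, so a missing peak may be one below the peak threshold.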
